A study of Mus musculus with 12 samples.

Results

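RNA of mouse mammary glands at the end of lactation was compared with RNA of glands after 3 days of involution, in animals whose JNK genes were intact. The comparison took 6 of the 12 libraries of the series, 3 from lactation (day 0) and 3 from involution day 3, chosen by the genotype and time in their labels, and 14512 of 37754 gene models with values passed the filter on low levels and were tested. All animals were C57BL/6 females after a single pregnancy, which nursed for 9 days before the pups were taken away by forced weaning. Glands of day 0 were collected at that point and glands of day 3 after 3 more days without suckling. The JNK wild type animals (JNK WT) carried the Wap-Cre transgene and no floxed Mapk8 or Mapk9, so both of their time points, like the glands of the other genotype, expressed a Cre recombinase driven by the whey acidic protein promoter in the lactating epithelium. The other 6 libraries came from animals with Wap-Cre and floxed Mapk8 and Mapk9 (JNK KO), at the same time points, and were used for the spread between libraries and for the difference between the genotypes. RNA was taken from frozen pieces of whole gland, which hold epithelium, fat, vessels, connective tissue and blood cells.

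Lactating alveoli are made of secretory luminal cells, which synthesise caseins, whey proteins, lactose and milk fat under prolactin and STAT5, and of myoepithelial cells, which contract to eject milk. When suckling stops, milk stasis brings LIF, STAT3 and lysosomal activity into play, the secretory cells die and are cleared, and the fat pad fills the space they leave. Acute phase proteins, proteases of the matrix and macrophages are known features of this remodelling.

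Levels are given as FPKM, the length-scaled and depth-scaled fragment values that the authors computed for each gene, and each gene's values are listed for day 0 libraries 1, 2 and 3 and then for day 3 libraries 3, 6 and 12, the numbers of the deposited columns. FPKM are shares of a library, and 21 casein, whey and fat globule genes took 84.4%, 87.5% and 83.8% of the FPKM sum on day 0 and 20.8%, 18.2% and 8.92% on day 3, without antigen receptor segments and gene models under 200 bases. Changes were therefore computed as deposited and again after median ratio scaling, in which a library's values are divided by 1 factor, the median over genes of its ratio to the geometric mean of all libraries. Scaling factors were 0.304, 0.487 and 0.577 on day 0 and 2.40, 2.34 and 2.79 on day 3. The median of all genes changed by 2.37 on the log2 scale as deposited and by 0.06 after scaling, and the median over genes of the difference between the scales was 2.40. The amount of RNA per gland was not measured, and a scaled change is a change relative to the median gene. Changes of genes and lists, and counts of rises and falls within a list, are on the log2 scale after median ratio scaling wherever the deposited scale or another is not named. The labelled tissue was borne out by Csn2 and Wap, both at 4797 FPKM or more in all 6 libraries, and by Krt18, a keratin of luminal cells, at 15.1, 22.4 and 27.8 FPKM on day 0 and 208, 204 and 229.7 FPKM on day 3. Day 0 library 1 stood apart from the other day 0 libraries, with Pearson's r across genes of 0.861 and 0.851 against 0.950 between libraries 2 and 3. It also had fewer gene models at 1 FPKM or more, 6545 against 8426 and 8920 in libraries 2 and 3. On day 3, library 12 had r of 0.916 with library 3 and 0.922 with library 6, against 0.965 between libraries 3 and 6.

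A gene was counted as changed when limma's adjusted p (Benjamini-Hochberg, over the 14512 genes) was below 0.01 and the log2 change was larger than 1 in either direction. As deposited, 12419 genes (85.6%) were higher and 139 (0.958%) lower on day 3. After scaling, 1443 (9.94%) were higher and 1208 (8.32%) lower, so that the higher genes made up 98.9% of the calls as deposited and 54.4% after scaling. On both scales 1443 genes (9.94%) were higher and 138 (0.951%) lower, and the 3 libraries of each time point did not overlap for any of these, as deposited or scaled. Over all 14512 genes the scaled groups did not overlap for 3662 (25.2%) higher and 3189 (22%) lower on day 3. The thresholds of a call favour such genes, so the lack of overlap is no separate support. A further 329 genes (2.27%) were higher as deposited and lower after scaling. The scaled counts depended on the libraries of day 3: without library 12 they were 724 higher and 774 lower, without library 3 they were 881 and 864, and without library 6 they were 923 and 845. Without day 0 library 1, 1686 genes were higher on both scales and 176 lower, of which 1229 and 125 were among those found with all libraries. In a fit on the 6 JNK WT libraries alone, which has fewer degrees of freedom, 401 were higher and 491 lower after scaling. With the total of FPKM outside milk genes and antigen segments as the scale, 1561 were higher and 438 lower. Counts within lists under such settings did not always move with these counts over all genes. Without day 3 library 12, for example, more members of the glycolysis list described below rose, while fewer of all genes did. List members were counted at a looser threshold, given below, and the shares of all genes at that threshold are not given for such settings. Whether a list's count changed more than that of all genes was not tested.

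**Figure D1:**
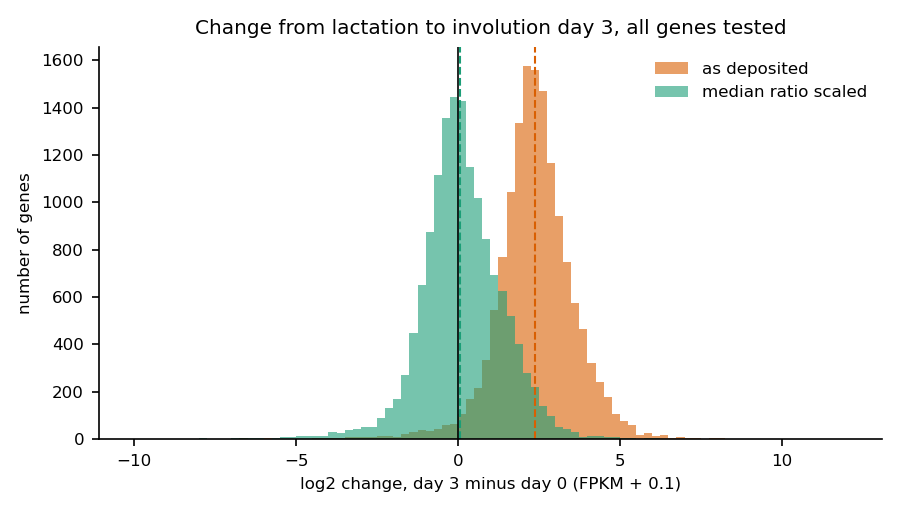
Number of genes (y axis) by log2 change from day 0 to day 3 (x axis, day 3 minus day 0) for the 14512 genes tested, as deposited in orange and after median ratio scaling in green, with dashed lines at the medians of 2.37 and 0.06. Nearly the whole distribution lies right of 0 as deposited, and it is centred near 0 after scaling.

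**Figure D2:**
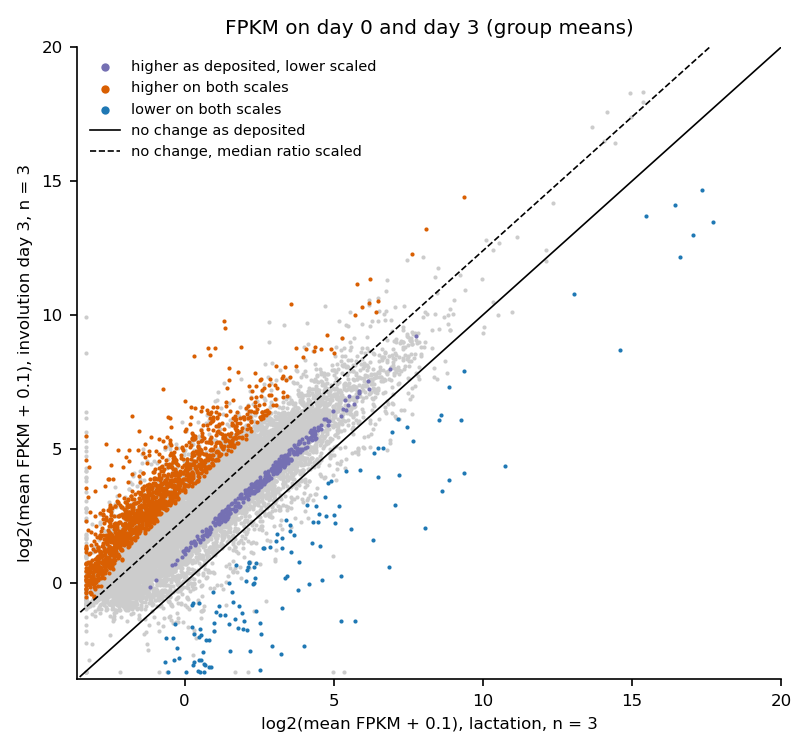
Group means on day 0 (x axis) and day 3 (y axis) as log2(mean FPKM + 0.1), 3 libraries each, 1 point per gene tested. The 1443 genes higher on both scales (orange) lie above the dashed line of no scaled change, the 138 lower on both scales (blue) lie below the solid line of no deposited change, and the 329 genes that changed direction with the scale (violet) lie between the lines.

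All 5 caseins fell on both scales, with a median scaled log2 change of -6.77, and of 8 other secreted milk proteins 6 fell and 2 rose, also on both scales. Past an adjusted p of 0.05, the threshold for single genes and list members, 2375 genes (16.4%) of all those tested were lower after scaling and 2778 (19.1%) higher, and as deposited 194 (1.34%) were lower and 13280 (91.5%) higher. These shares are the background of the list counts on these scales with all libraries, and a count near them is no trait of the list. In bulk tissue, fewer cells of a type and less RNA per cell cannot be told apart, which holds for each gene described here. Csn2, which encodes beta-casein, was at 151448, 160957 and 183005 FPKM on day 0 and 33923, 33962 and 9525 FPKM on day 3. The change was -2.89 on the log2 scale as deposited and -5.40 ± 0.96 (standard error) after scaling, with an adjusted p of 0.00171. Library 12 was the lowest of day 3 and the time points were far apart. Csn1s2a, an alpha-S2-type casein and the most abundant of the milk genes on day 0, was at 251049, 201127 and 183676 FPKM on day 0 and 15168, 14199.7 and 4769.6 FPKM on day 3. Its scaled change was -6.89 ± 0.98 (adjusted p = 4.61e-04). Csn3, the kappa-casein that keeps casein micelles in solution, fell least of the caseins, from 55541, 33457 and 48034 FPKM on day 0 to 13448, 16106 and 9741 FPKM on day 3, with a scaled change of -4.31 ± 0.68. Without any filter on low levels the scaled calls of all 5 caseins and of Wap ended, with values from -6.88 for Csn1s2a to -4.30 for Csn3 and adjusted p from 0.0595 for Csn1s2b to 0.523 for Csn2.

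The promoters of the most abundant falling milk genes and of the acute phase genes with the largest rises are shown, because these groups moved in opposite directions on both scales. The sequences are from RefSeq (GRCm38.p6), 250 bases before to 50 after the start of the gene, 5′ to 3′ on the gene's strand, with matches to TTCNNNGAA (STAT factors), TTNNGNAA (C/EBP factors) and TGANTCA (AP1), searched on both strands, in capitals. Csn1s2a lies on the plus strand (chr5:87774200-87774499), Csn2 on the minus strand (chr5:87699376-87699675), Chi3l1, listed by RefSeq as Chil1, on the plus strand (chr1:134181906-134182205) and Slpi on the minus strand (chr2:164356458-164356757).
Csn1s2a: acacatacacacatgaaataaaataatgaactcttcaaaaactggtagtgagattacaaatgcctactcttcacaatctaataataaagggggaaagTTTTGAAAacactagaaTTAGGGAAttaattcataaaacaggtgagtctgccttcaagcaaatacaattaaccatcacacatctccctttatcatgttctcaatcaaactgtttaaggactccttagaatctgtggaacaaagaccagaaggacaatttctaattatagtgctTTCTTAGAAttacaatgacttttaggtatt
Csn2: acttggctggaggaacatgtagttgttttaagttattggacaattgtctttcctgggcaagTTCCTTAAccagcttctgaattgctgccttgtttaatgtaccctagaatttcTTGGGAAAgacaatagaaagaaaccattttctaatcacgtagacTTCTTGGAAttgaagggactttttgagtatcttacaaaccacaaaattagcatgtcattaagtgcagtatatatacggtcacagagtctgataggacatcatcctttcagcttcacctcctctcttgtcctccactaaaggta
Chi3l1: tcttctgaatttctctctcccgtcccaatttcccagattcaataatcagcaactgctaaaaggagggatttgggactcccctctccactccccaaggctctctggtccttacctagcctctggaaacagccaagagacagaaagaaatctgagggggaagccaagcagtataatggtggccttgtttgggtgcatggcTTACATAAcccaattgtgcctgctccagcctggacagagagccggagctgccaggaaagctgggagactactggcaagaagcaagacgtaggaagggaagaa
Slpi: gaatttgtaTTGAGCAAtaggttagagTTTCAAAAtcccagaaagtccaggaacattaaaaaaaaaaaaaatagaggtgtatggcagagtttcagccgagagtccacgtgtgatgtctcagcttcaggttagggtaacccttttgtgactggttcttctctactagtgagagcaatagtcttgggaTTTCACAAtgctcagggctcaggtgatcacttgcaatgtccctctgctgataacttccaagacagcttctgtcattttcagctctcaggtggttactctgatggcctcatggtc
In Csn2 the STAT match lay 93 to 85 bases before the start, and in Csn1s2a it lay 21 to 29 bases into the gene. Each casein promoter had 2 matches to the C/EBP letters, Chi3l1 had 1 and Slpi had 3, and none of the 4 held the AP1 letters. Promoters were found for 10 of the 11 caseins and secreted milk proteins lower on both scales, and 5 (50%) held the STAT letters, 6 (60%) the C/EBP letters and 3 (30%) the AP1 letters. For the 8 acute phase genes higher on both scales 6 promoters were found, of which 0 held the STAT letters, 5 (83.3%) the C/EBP letters and 1 (16.7%) the AP1 letters. Among all 32851 promoters of the table the shares were 8.3%, 40.7% and 7.81%. A match is a description of the letters and not a binding site.

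**Figure D3:**
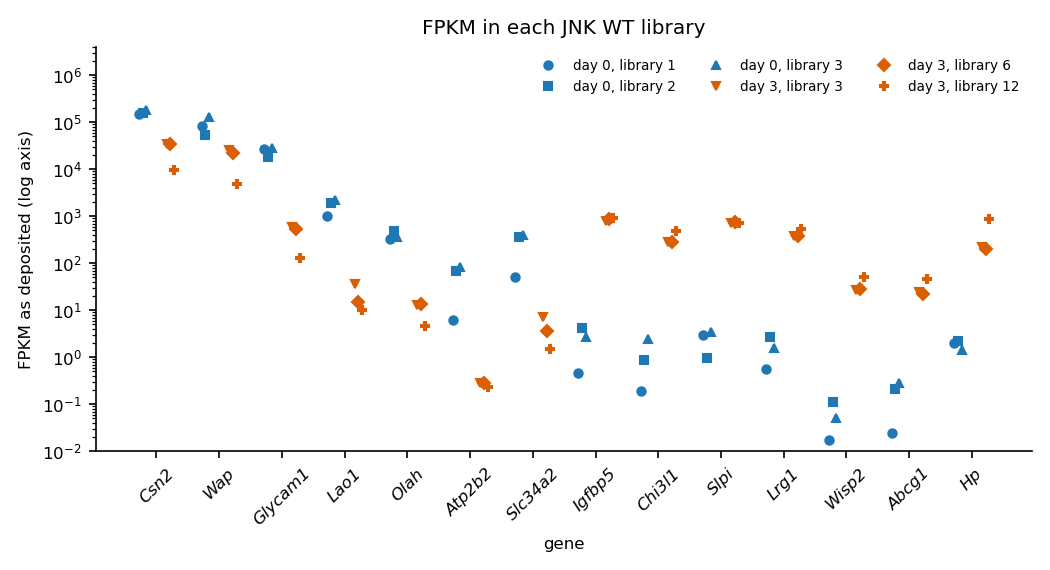
FPKM as deposited (log axis) of 14 genes in each JNK WT library, with day 0 in blue and day 3 in orange and 1 symbol per library. The 7 genes on the left were lower in every day 3 library than in every day 0 library, and the 7 on the right were higher, with library 12 lowest of day 3 for Csn2, Wap and Glycam1.

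Among the secreted proteins of milk, Lao1, an L-amino acid oxidase of milk, had the largest scaled fall among the genes with a symbol of their own called on both scales, leaving out gene models with only a clone name. It was at 1024, 1927 and 2209 FPKM on day 0 and 35.5, 15.2 and 10.2 FPKM on day 3, and changed by -6.52 as deposited and -9.02 ± 0.60 after scaling (adjusted p = 5.60e-06). Glycam1, a mucin-like milk glycoprotein, was at 26807, 18428 and 28982 FPKM on day 0 and 587, 533 and 132 FPKM on day 3. Glycam1 changed after scaling by -8.64 ± 0.77. Pip, the prolactin-induced protein, was at 86.5, 179.8 and 79.9 FPKM on day 0 and 1.76, 2.25 and 0.2197 FPKM on day 3. Like all 138 genes lower on both scales, these 3 were lower in every day 3 library than in any day 0 library, with library 12 lowest. Wap, the whey acidic protein whose promoter drives the transgene, was at 85052, 53113 and 127809 FPKM on day 0 and 25623, 22147 and 4797 FPKM on day 3, and Lalba, alpha-lactalbumin, the regulatory subunit of lactose synthase, at 12692, 5897 and 6751 FPKM on day 0 and 1855, 1998 and 1371 FPKM on day 3. Their scaled changes were -5.08 ± 0.95 and -4.72 ± 0.61, and neither overlapped between the time points. The other direction was taken by Spp1, which encodes osteopontin, at 11.9, 148 and 662 FPKM on day 0 and 6876, 9042 and 12201 FPKM on day 3, with a scaled rise of 3.93 ± 0.91 (adjusted p = 0.00696), and by Ltf, the iron-binding lactoferrin, at 29.6, 246 and 253 FPKM on day 0 and 4944, 4654 and 2975 FPKM on day 3, with a scaled rise of 2.55 ± 0.69 (adjusted p = 0.0155). The call of Ltf ended without day 3 library 3 (2.39) or 6 (2.41), and that of Spp1 in the fit on 6 libraries (3.91).

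Of 8 genes of fat globule secretion 5 fell and none rose after scaling, and of 26 lipogenic genes, for fatty acids and triglycerides, 16 fell and 2 rose (11 and 2 with the total of FPKM outside milk genes and antigen segments as the scale). As deposited, 2 fat globule genes fell and 2 rose, and 3 lipogenic genes fell and 9 rose. Olah, the thioesterase that ends fatty acid chains at medium length in milk fat, was at 326, 493 and 355 FPKM on day 0 and 13.04, 13.8 and 4.698 FPKM on day 3. It changed by -5.33 as deposited and -7.81 ± 0.42 after scaling (adjusted p = 3.19e-06), and day 3 library 12 was again the lowest. Fabp3, a fatty acid binding protein of the lactating gland, was at 464, 409 and 517 FPKM on day 0 and 23.1, 16.9 and 2.39 FPKM on day 3, and its near-identical copy Fabp3-ps1 at 575, 662 and 721 FPKM on day 0 and 25.6, 22.9 and 2.55 FPKM on day 3, so that reads of the pair may have been divided between them and each value is uncertain. Cidea, a lipid droplet protein, was at 590.5, 613 and 634 FPKM on day 0 and 82.4, 63.3 and 57.3 FPKM on day 3. Cidea changed after scaling by -5.70 ± 0.35. Fads1, a desaturase of polyunsaturated fatty acids, fell by 3.72 ± 0.48 after scaling (adjusted p = 2.62e-04) from 32.1, 142 and 176 FPKM on day 0 to 39.7, 41.2 and 38.8 FPKM on day 3, and its deposited change of -1.22 (adjusted p = 0.0426) lost its call without any of 9 single libraries, with -0.76 without day 0 library 3. Acaca, which makes malonyl-CoA, changed after scaling by -3.54, Acly by -3.10 (adjusted p = 0.00302), and Fasn, the fatty acid synthase, did not pass, with a scaled change of -2.07 (adjusted p = 0.0693). Mfge8 and Plin2, proteins of the globule's coat, had scaled changes of -0.15 and -0.56 (adjusted p = 0.8196 and 0.0708). Against the group, Dgat2, which completes triglycerides also in adipocytes, rose from 1.797, 2.58 and 2.41 FPKM on day 0 to 85.01, 37.04 and 62.2 FPKM on day 3, by 2.17 ± 0.34 after scaling (adjusted p = 7.76e-04). Mlxipl, a carbohydrate-responsive transcription factor, was at 0.118, 0.2599 and 0.299 FPKM on day 0 and 13.3, 5.99 and 4.45 FPKM on day 3 and rose after scaling by 2.35 ± 0.61, a call that ended without day 3 library 3 (1.87).

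Of the cholesterol genes 18 of 21 fell and none rose after scaling, with a median of -1.90, while as deposited 3 fell and 7 rose with a median of 0.56. With the total of FPKM outside milk genes and segments as the scale, 10 of the 21 fell and the median was -1.35. Insig1, which holds back the SREBP transcription factors, was at 34.9, 62.6 and 77.6 FPKM on day 0 and 28.1, 11.7 and 15.5 FPKM on day 3, and Hsd17b7, an enzyme late in the pathway, at 5.03, 10.1 and 13.1 FPKM on day 0 and 3.79, 3.48 and 2.07 FPKM on day 3. Both were lower in every day 3 library on either scale, with scaled changes of -4.17 ± 0.45 and -3.93 ± 0.47. Sqle, squalene epoxidase, changed after scaling by -3.34 (adjusted p = 4.09e-04). Hmgcs1 and Srebf2 did not pass, with scaled changes of -0.32 and -0.26 (adjusted p = 0.474 and 0.673).

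Transport of minerals and sugar into milk was lower after scaling in most members. Of 11 mineral transport genes 9 fell and 1 rose, and of 9 lactose synthesis genes 6 fell and 1 rose. As deposited, 4 mineral genes fell and 3 rose, with a median of 0.35. On that scale 2 lactose genes fell and 5 rose, with a median of 0.96. Atp2b2, the plasma membrane pump that moves calcium into milk, was at 6.12, 68.6 and 82.8 FPKM on day 0 and 0.283, 0.287 and 0.2299 FPKM on day 3. It changed by -6.49 as deposited and -8.49 ± 0.67 after scaling (adjusted p = 1.25e-05), and day 0 library 1 lay well under the other 2 lactating glands without reaching day 3. Slc34a2, a sodium-phosphate cotransporter of the apical membrane, was at 50.8, 356 and 401 FPKM on day 0 and 7.06, 3.58 and 1.48 FPKM on day 3, with the same low library on day 0 and a scaled change of -8.23 ± 0.87. Pthlh, the parathyroid hormone-related protein of the lactating gland, changed after scaling by -5.47 (adjusted p = 6.29e-06) and the zinc transporters Slc30a2 and Slc30a4 by -2.54 and -3.21 (adjusted p = 3.54e-05 and 6.83e-06). The rising member was Slc20a2, a phosphate transporter, which rose from 0.4603, 1.095 and 1.53 FPKM on day 0 to 12.7, 13.2 and 15.3 FPKM on day 3, by 1.35 ± 0.21 after scaling (adjusted p = 8.39e-04). For lactose, B4galt1, the galactosyltransferase that pairs with alpha-lactalbumin, was at 92.8, 163 and 205 FPKM on day 0 and 98.6, 86.6 and 72.9 FPKM on day 3, values that overlapped as deposited and fell by 3.28 ± 0.32 after scaling. Slc2a1, a glucose transporter, changed by -2.06 after scaling (adjusted p = 0.00133). Pgm2, a phosphoglucomutase, rose by 1.93 ± 0.48 after scaling (adjusted p = 0.010004), from 1.86, 5.11 and 5.15 FPKM on day 0 to 125, 99.2 and 40.9 FPKM on day 3. With the total outside milk genes and segments as the scale, 2 of the 9 lactose genes and 5 of the 11 mineral genes fell.

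Supply of amino acids and secretion gave a divided picture after scaling. Asns, asparagine synthetase, fell on both scales, from 15.99, 37.9 and 36.6 FPKM on day 0 to 14.5, 11.6 and 15.2 FPKM on day 3, with a scaled change of -3.52 ± 0.27 (adjusted p = 1.05e-05). Trib3, a pseudokinase induced by ATF4, was at 8.21, 11.5 and 13.2 FPKM on day 0 and 6.696, 5.82 and 8.72 FPKM on day 3, overlapping as deposited, and fell by 3.09 ± 0.25 after scaling, and the serine synthesis genes Psat1 and Phgdh changed by -2.97 and -2.79 (adjusted p = 2.82e-04 and 8.64e-06). In the same list of 11 genes of the integrated stress response, Ddit3, which encodes CHOP, rose from 1.98, 1.296 and 1.78 FPKM on day 0 to 23.3, 21.3 and 27.4 FPKM on day 3, by 1.31 ± 0.33 after scaling (adjusted p = 0.0111), so that the list held 5 falls and 2 rises, 1 rise without day 3 library 12. Of 18 genes of folding and export in the endoplasmic reticulum, 3 rose and 4 fell after scaling, 4 and 1 with the total outside milk genes and segments as the scale. Ssr4, a subunit of the translocon-associated complex, fell on both scales from 833, 252 and 310.1 FPKM on day 0 to 137, 187 and 156 FPKM on day 3. Creld2, a chaperone-like protein of that compartment, rose by 1.42 ± 0.23 after scaling (adjusted p = 9.58e-04) from 3.15, 3.13 and 4.73 FPKM on day 0 to 59.4, 55.7 and 50.7 FPKM on day 3. Among 10 amino acid transporters 4 fell and 2 rose, none of the falls held with the total outside milk genes and segments as the scale, and 1 gene rose without day 3 library 12 or library 3. Slc1a5, a glutamine transporter, rose from 1.69, 2.54 and 4.75 FPKM on day 0 to 63.6, 27.04 and 88.03 FPKM on day 3, by 1.76 ± 0.42 after scaling. Slc7a2, a cationic amino acid transporter, was at 1.23, 6.38 and 7.22 FPKM on day 0 and 3.96, 3.25 and 4.38 FPKM on day 3, with overlapping groups as deposited and a scaled fall of 2.44 ± 0.53, and its deposited direction reversed without day 0 library 2 or 3 or without day 3 library 6.

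Further genes lower on both scales were chosen after their values were seen, to show more members of the 138, some of them also linked to milk. Egf, epidermal growth factor, which is secreted into milk, was at 5.74, 29.4 and 33.9 FPKM on day 0 and 3.49, 3.17 and 0.854 FPKM on day 3. Its scaled change was -5.39 ± 0.54 (adjusted p = 5.93e-05), and the groups did not overlap although day 0 library 1 was low. Ccl28, a chemokine that draws IgA-producing plasma cells to the lactating gland, was at 49.1, 40.2 and 24.1 FPKM on day 0 and 0.378, 0.331 and 0.105 FPKM on day 3. Ccl28 changed after scaling by -8.66 ± 0.48. The other measured genes of IgA delivery did not pass after scaling: Pigr, which carries IgA across the epithelium, had a scaled change of -1.03 (adjusted p = 0.159) and Igha one of 0.73 (adjusted p = 0.133). Without day 0 library 1, 1 gene of that list of 5 rose and 2 fell. Tfrc, the transferrin receptor, was at 12.8, 35.8 and 46.8 FPKM on day 0 and 7.68, 5.63 and 3.69 FPKM on day 3. Tfrc changed after scaling by -4.80 ± 0.51. Abcg2, a transporter that concentrates riboflavin and drugs in milk, changed after scaling by -5.58 (adjusted p = 3.35e-06), Lpo, the peroxidase of milk, by -5.06 (adjusted p = 1.95e-04), St6gal1, a sialyltransferase, by -4.95 (adjusted p = 1.39e-05), and Qsox1, a sulfhydryl oxidase of secreted proteins, by -3.94 (adjusted p = 9.00e-06). Named by the size of their fall were also Gsdmc, a gasdermin, at 10.5, 12.7 and 24.1 FPKM on day 0 and 0.167, 0.0433 and 0.07898 FPKM on day 3, Ppapdc1a, of a family of lipid phosphatases, at 11.1, 9.096 and 7.35 FPKM on day 0 and 0.0359, 0.0959 and 0.0456 FPKM on day 3, and Crhr1, a receptor for corticotropin-releasing hormone, at 4.48, 4.45 and 8.04 FPKM on day 0 and 0, 0.0141 and 0 FPKM on day 3. Their scaled changes were -7.94 ± 0.58, -7.39 ± 0.39 and -6.93 ± 0.56. No overlap between the time points was a condition of naming by the size of the fall.

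Of 7 measured genes of iron handling 5 rose after scaling and 2, Tfrc and Slc11a2, fell. Fth1, the ferritin heavy chain that stores iron, was at 702, 609 and 655 FPKM on day 0 and 19924, 25508 and 19171 FPKM on day 3, and rose by 5.03 as deposited and 2.52 ± 0.46 after scaling (adjusted p = 0.00183). Slc40a1, the iron exporter ferroportin, was at 0.134, 0.103 and 0.172 FPKM on day 0 and 18.1, 17.6 and 24.2 FPKM on day 3. Slc40a1 rose after scaling by 4.29 ± 0.46 (adjusted p = 9.10e-05). Among 14 genes of the NRF2 and antioxidant response 6 rose and 2 fell, 3 and 2 without day 0 library 2 or 3. Hmox1 of that list, the haem oxygenase, was at 0.615, 1.25 and 1.21 FPKM on day 0 and 39.7, 46.8 and 96.7 FPKM on day 3. Hmox1 rose after scaling by 3.29 ± 0.42, with library 12 highest. Slc11a2, a metal transporter, was at 3.87, 7.74 and 9.14 FPKM on day 0 and 17.5, 11.9 and 14.2 FPKM on day 3, higher as deposited by 1.13 with a scaled change of -1.35 ± 0.27, a call lost with the total outside milk genes and segments as the scale (-0.80).

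Of 9 genes of prolactin and STAT5 signalling 4 fell and 1 rose after scaling, with a median of -1.06, and 2 fell with the total outside milk genes and segments as the scale. As deposited, 6 of them rose and none fell, with a median of 1.42. Elf5, a transcription factor of alveolar cells, was at 141, 284 and 271 FPKM on day 0 and 285, 285 and 235 FPKM on day 3. These values overlapped as deposited, where the log2 difference was 0.27 (adjusted p = 0.365), and fell by 2.24 ± 0.28 after scaling (adjusted p = 2.15e-04). Akt1, a kinase of milk lipid synthesis, was at 26.5, 59.4 and 63.1 FPKM on day 0 and 56.4, 59.2 and 72.5 FPKM on day 3 and fell by 2.07 ± 0.25 after scaling. Cish and Socs2, feedback targets of STAT5, changed after scaling by -1.58 and -1.06 (adjusted p = 0.0145 and 0.003496), and Stat5a and Stat5b did not pass, with scaled changes of -0.51 and -0.09 (adjusted p = 0.228 and 0.847). Ghr, the growth hormone receptor, passed with overlapping scaled groups (0.82 ± 0.27, adjusted p = 0.0341), and this call ended without day 0 library 2 (0.68) or 3 (0.70), without day 3 library 3 (0.67) or 12 (0.79), without JNK KO day 3 library 6 and in the fit on 6 libraries.

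Of 13 genes of the LIF, OSM and IL6 axis 5 rose and none fell after scaling. Lif, the ligand induced by milk stasis, was at 0, 0.0236 and 0.0169 FPKM on day 0 and 2.03, 1.82 and 3.83 FPKM on day 3. It rose by 3.10 ± 0.34 after scaling (adjusted p = 1.04e-04), and day 0 library 1 listed it at 0. Osmr, the oncostatin M receptor, was at 0.188, 0.524 and 0.518 FPKM on day 0 and 25.6, 27.7 and 36.5 FPKM on day 3. Osmr rose after scaling by 3.65 ± 0.24. Cebpb, a C/EBP factor, rose after scaling by 3.06 (adjusted p = 4.75e-04) and Il6st, the shared receptor subunit gp130, by 1.10 (adjusted p = 0.0263). Stat3, Lifr and Cebpd had scaled changes of 1.23, -0.46 and 0.17 (adjusted p = 0.113, 0.167 and 0.855). Without day 0 library 1, 5 members rose and 2 fell.

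Of 15 acute phase genes 10 rose and 2 fell after scaling, with a median of 2.93. Chi3l1, a chitinase-like glycoprotein, was at 0.194, 0.857 and 2.41 FPKM on day 0 and 283, 286 and 492 FPKM on day 3. It rose by 8.58 as deposited and 6.24 ± 0.98 after scaling (adjusted p = 8.13e-04). Slpi, an inhibitor of leukocyte proteases, was at 2.97, 0.953 and 3.498 FPKM on day 0 and 725, 745 and 735 FPKM on day 3, nearly level within day 3, and rose by 5.87 ± 0.74 after scaling. Lrg1, a leucine-rich glycoprotein, was at 0.562, 2.72 and 1.57 FPKM on day 0 and 380.2, 383 and 525 FPKM on day 3, and Hp, haptoglobin, at 2.05, 2.24 and 1.43 FPKM on day 0 and 219.7, 199.6 and 878 FPKM on day 3, with library 12 highest for both. Their scaled rises were 5.75 ± 0.69 and 4.95 ± 0.55. Lcn2, which binds bacterial siderophores, rose after scaling by 2.28 (adjusted p = 0.00666), and Saa1 by 4.49 (adjusted p = 0.0112). Orm1, an orosomucoid, was at 143, 209 and 234 FPKM on day 0 and 174, 166 and 123 FPKM on day 3, overlapping as deposited and lower by 2.84 ± 0.73 after scaling. Serpina3g, a serpin, fell on both scales, from 20.4, 7.16 and 7.87 FPKM on day 0 to 2.26, 1.3005 and 2.86 FPKM on day 3.

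**Figure D4:**
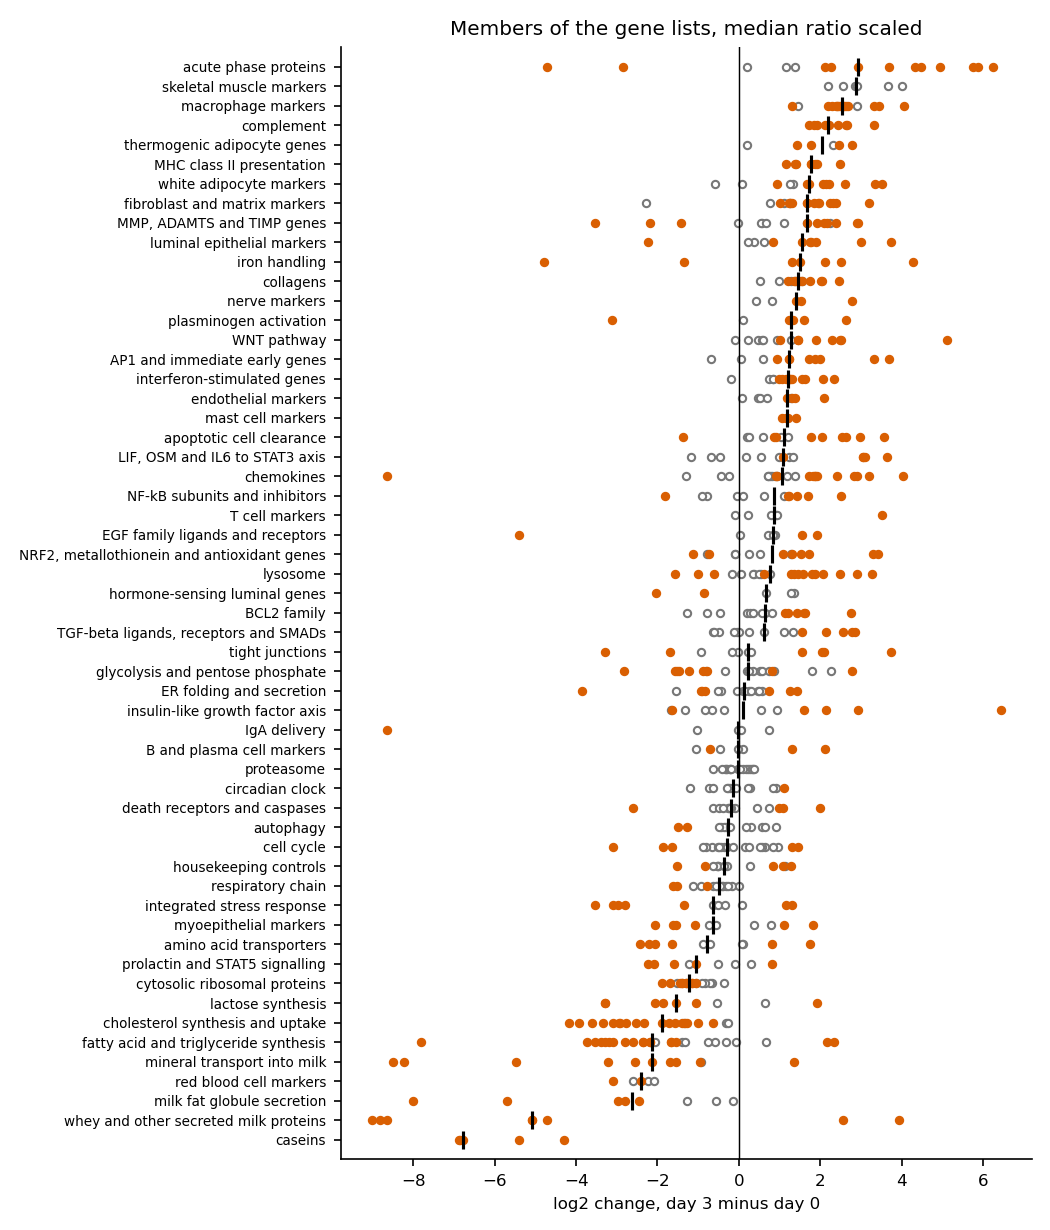
Scaled log2 change from day 0 to day 3 (x axis) of the tested members of each gene list with at least 5 tested members (y axis), 1 point per gene, filled where the adjusted p was under 0.05, with a bar at the list's median. Caseins lie lowest at a median of -6.77 and acute phase proteins highest at 2.93, and proteasome genes lie around 0.

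Among the genes called on both scales, again without models that have only a clone name, the largest scaled rise was that of Plb1, a phospholipase, from 0.00615, 0.474 and 0.108 FPKM on day 0 to 71.9, 93.6 and 58.6 FPKM on day 3, by 8.30 as deposited and 6.46 ± 0.87 after scaling (adjusted p = 3.49e-04). Igfbp5, which binds insulin-like growth factors, was at 0.457, 4.09 and 2.67 FPKM on day 0 and 791, 889.9 and 935 FPKM on day 3. Igfbp5 rose after scaling by 6.44 ± 0.59 (adjusted p = 3.15e-05) with day 3 libraries that differed little. In its list of 12 genes 4 rose and 1 fell, 5 and 4 without day 0 library 1, and Igf1 and Igf2 did not pass, with scaled changes of -0.65 and 0.93 (adjusted p = 0.331 and 0.133). Igfbp4 rose from 1.33, 1.31 and 2.63 FPKM on day 0 to 57.5, 50.6 and 139.6 FPKM on day 3, by 2.94 ± 0.39 after scaling, and Igf1r, the receptor, by 2.14 (adjusted p = 6.78e-04). Igfbp3 was at 1.34, 4.57 and 3.25 FPKM on day 0 and 3.77, 4.97 and 5.82 FPKM on day 3 and fell by 1.64 ± 0.47 after scaling, a call that ended without day 0 library 2 (-1.34) or day 3 library 3 (-1.50) and with the total outside milk genes and segments as the scale (-1.11, adjusted p = 0.215). Basp1, a membrane-attached signalling protein, was at 0.263, 0.495 and 0.773 FPKM on day 0 and 151, 139.9 and 155 FPKM on day 3, and its scaled rise of 5.68 ± 0.28 had the smallest standard error of the 15 largest. Wisp2, a secreted protein of the CCN family, was at 0.0174, 0.111 and 0.05005 FPKM on day 0 and 27.2, 28.4 and 51.3 FPKM on day 3. Cyp24a1, the hydroxylase that inactivates vitamin D, was at 0.0156, 0 and 0.00755 FPKM on day 0 and 20.03, 26.03 and 12.97 FPKM on day 3. Clca2, of the calcium-activated chloride channel regulators, was at 0.313, 3.68 and 1.16 FPKM on day 0 and 342, 463 and 286 FPKM on day 3. The scaled rises of these 3 genes were 6.01 ± 0.48, 6.000 ± 0.45 and 5.76 ± 0.92. The genes were named among the largest rises, for which no overlap between the time points was a condition. Abcg1, an exporter of cholesterol, was at 0.0249, 0.208 and 0.284 FPKM on day 0 and 24.6, 22.5 and 45.6 FPKM on day 3. Abcg1 rose after scaling by 4.94 ± 0.63. Cyp2d10, a cytochrome P450, and Ctxn1, a cortexin, were at no more than 0.048 FPKM in any day 0 library and at 9.87, 7.55 and 9.83 and 8.85, 11.6 and 11.5 FPKM on day 3. Wfdc5, which shares a protein domain with Wap, was listed at 0 in all day 0 libraries and at 10.4, 9.02 and 14.9 FPKM on day 3, so no fold is given. Plb1, Abcg1, Wisp2, Cyp24a1, Cyp2d10, Ctxn1 and Wfdc5 were under 0.5 FPKM in all JNK WT day 0 libraries. They passed the filter only through libraries of other groups, day 3 among them. The same holds for every other rising gene named here whose day 0 values all lay under 0.5 FPKM. Examples are Lif, Slc40a1, Wnt5b, Wnt5a, Relb, Bik, Cd4 and Kit.

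Of 15 WNT pathway genes 8 rose and none fell after scaling (7 and 1 without day 0 library 1), and of 15 TGF-beta genes 5 rose and none fell. Wnt5b, a non-canonical WNT ligand, was at 0.159, 0.0867 and 0.0943 FPKM on day 0 and 25.6, 31.8 and 35.9 FPKM on day 3. Wnt5b rose after scaling by 5.12 ± 0.40 (adjusted p = 1.11e-05), and Wnt5a was at 0.0724, 0.293 and 0.236 FPKM on day 0 and 6.19, 6.07 and 8.65 FPKM on day 3. This was a rise of 2.52 ± 0.30 after scaling. As deposited, both were lower in each lactating gland than in any day 3 gland. The secreted WNT antagonists Sfrp1 and Wif1 rose after scaling by 2.50 and 1.46 (adjusted p = 0.00105 and 0.0317), and Axin2, a target of the canonical pathway, by 1.005 (adjusted p = 0.0351). Tgfb3, a ligand known from milk stasis, was at 1.29, 2.58 and 3.64 FPKM on day 0 and 99.2, 95.8 and 95.3 FPKM on day 3. Tgfb3 rose after scaling by 2.86 ± 0.25 (adjusted p = 2.44e-05) with near equal day 3 libraries. Ltbp1, which stores the latent ligand in the matrix, was at 0.127, 0.549 and 0.535 FPKM on day 0 and 12.6, 14.6 and 17.2 FPKM on day 3. Tgfb1 rose after scaling by 2.14 (adjusted p = 4.41e-04), while Tgfbr1, Tgfbr2 and Smad3 had scaled changes of -0.05, 0.02 and -0.63 (adjusted p = 0.868, 0.976 and 0.287). Without day 0 library 1 the TGF-beta list held 5 rises and 3 falls. Of 7 EGF family genes Tgfa, a ligand of the EGF receptor, rose after scaling by 1.93 ± 0.36 (adjusted p = 0.00224), from 0, 0.0461 and 0.006997 FPKM on day 0 to 0.808, 0.9598 and 1.24 FPKM on day 3.

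Of 11 AP1 and immediate early genes 8 rose after scaling and none fell, and the count was 4 without day 3 library 12 or 6 and 5 without library 3. Junb, a JUN family member, was at 0.569, 0.686 and 0.595 FPKM on day 0 and 32.1, 27.4 and 59.8 FPKM on day 3, and Egr1, a zinc finger factor, at 0.151, 0.3604 and 1.104 FPKM on day 0 and 27.8, 25.5 and 45.9 FPKM on day 3. Library 12 was the highest for both, the groups did not overlap, and the scaled rises were 3.33 ± 0.49 and 3.68 ± 0.48. Jun, the main substrate of JNK, rose after scaling by 1.87 (adjusted p = 0.00305) and Jund did not pass, with a scaled change of 0.06 (adjusted p = 0.886). Mapk8, which encodes JNK1, was at 1.95, 2.33 and 2.65 FPKM on day 0 and 7.37, 6.57 and 7.901 FPKM on day 3, and its log2 difference was 1.62 as deposited (adjusted p = 0.00354) and -0.82 ± 0.38 after scaling (adjusted p = 0.116). Mapk9, which encodes JNK2, was at 2.48, 9.04 and 10.2 FPKM on day 0 and 18.1, 16.1 and 17.8 FPKM on day 3. Mapk9 changed by -0.998 ± 0.34 (adjusted p = 0.0416) after scaling, a call lost without any of 5 single JNK WT libraries, with -0.79 without day 0 library 2 and -1.06 without day 3 library 3. It was also lost with the 75th percentile (-0.81, adjusted p = 0.111) or the total outside milk genes and segments (-0.45, adjusted p = 0.589) as the scale, without a filter, in the fit on 6 libraries and without JNK KO day 3 library 4 or 6. Relb and Nfkb2, the subunits of the non-canonical NF-kB pathway, were at 0.278, 0.261 and 0.249 FPKM on day 0 and 8.26, 7.25 and 15.4 FPKM on day 3 and at 0.245, 0.853 and 1.26 FPKM on day 0 and 10.98, 9.48 and 18.4 FPKM on day 3. Their scaled rises were 2.51 ± 0.45 and 1.69 ± 0.42, and 5 of 12 genes of the list rose and 1 fell. That count was 2 rises without day 3 library 12 and 3 without library 3 or 6.

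Of 15 members of the BCL2 family, which holds promoters and inhibitors of cell death, 6 rose and none fell after scaling, 4 of them without day 3 library 12. Bik, a BH3-only protein, was at 0.264, 0.165 and 0.275 FPKM on day 0 and 9.12, 9.66 and 12.3 FPKM on day 3. Bik rose after scaling by 2.75 ± 0.36 (adjusted p = 2.91e-04). Bax, a pore-forming effector, rose after scaling by 1.61 (adjusted p = 0.0119), and the protective members Bcl2 and Bcl2l1 rose by 1.63 and 1.21 (adjusted p = 0.0109 and 0.00169). Bcl2l11 and Bmf, further BH3-only genes, had scaled changes of 0.64 and 0.56 (adjusted p = 0.0953 and 0.395). Of 14 death receptor and caspase genes 3 rose and 1 fell, where 19.1% of all genes were higher and 16.4% lower. Tnfrsf10b, the TRAIL receptor, was at 0.0378, 0.19004 and 0.194 FPKM on day 0 and 2.54, 3.04 and 4.86 FPKM on day 3. Tnfrsf10b rose after scaling by 1.99 ± 0.39. Without any single day 3 library or day 0 library 2, 1 gene of that list rose and 1 fell.

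Of 21 lysosome genes 11 rose and 3 fell after scaling, and of 13 autophagy genes none rose and 2 fell. With the total outside milk genes and segments as the scale the counts were 14 and 1 for the lysosome and 1 and 1 for autophagy. Lgmn, the protease legumain, was at 2.39, 2.75 and 2.63 FPKM on day 0 and 112, 113 and 239.6 FPKM on day 3, and Hexa, a hexosaminidase subunit, at 2.15, 1.34 and 1.65 FPKM on day 0 and 57.4, 58.3 and 119 FPKM on day 3. Library 12 was highest for both, and the scaled rises were 3.27 ± 0.32 and 2.91 ± 0.39. Ctss, a cathepsin of antigen-presenting cells, was at 8.71, 6.58 and 9.41 FPKM on day 0 and 223, 222 and 365 FPKM on day 3. This was a rise of 2.50 ± 0.33 after scaling. Ctsl and Ctsb, cathepsins of the involuting epithelium, had scaled changes of 1.35 and 0.54 (adjusted p = 7.22e-04 and 0.0575). Atg5, which is needed to form autophagosomes, was at 6.48, 5.06 and 5.65 FPKM on day 0 and 12.7, 13.7 and 13.7 FPKM on day 3, higher as deposited by 1.22 with a scaled change of -1.26 ± 0.27, a call lost with the total outside milk genes and segments as the scale (-0.71). Of 14 genes of the clearance of dead cells 8 rose and 1 fell. Gas6, which bridges dying cells to TAM receptors, was at 1.82, 2.96 and 3.36 FPKM on day 0 and 137, 148 and 284 FPKM on day 3. Gas6 rose after scaling by 3.56 ± 0.30 (adjusted p = 1.74e-05). Its receptors Tyro3 and Axl rose after scaling by 2.63 and 1.76 (adjusted p = 0.00452 and 0.00112) and Mertk had a scaled change of 1.20 (adjusted p = 0.111).

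The summed scaled level of macrophage markers was higher in all day 3 libraries than in any day 0 library, and highest in library 12. Of 16 measured markers 14 rose and none fell after scaling. Cd68, a macrophage lysosomal glycoprotein, was at 1.45, 1.07 and 1.72 FPKM on day 0 and 70.1, 70.3 and 139 FPKM on day 3. Its scaled rise was 3.44 ± 0.32, and as deposited no day 0 library exceeded 1.72 FPKM. All 10 measured complement genes and all 8 genes of MHC class II presentation rose. C3, the central complement component, was at 1.796, 11.4 and 7.07 FPKM on day 0 and 186, 119.9 and 303 FPKM on day 3, and H2-Eb1, a class II chain, at 16.9, 12.04 and 17.98 FPKM on day 0 and 276, 281 and 471 FPKM on day 3, with scaled rises of 2.65 ± 0.67 and 1.92 ± 0.31. The complement list shares C1qa, C1qb and C1qc with the macrophage list. Without day 3 library 12, 12 macrophage, 9 complement and 5 class II genes rose, and in the fit on 6 libraries 14, 10 and 5. Among 24 chemokines 12 rose and 1 fell. Ccl8, which attracts monocytes, was at 2.77, 0.362 and 0.335 FPKM on day 0 and 27.5, 78.9 and 169.6 FPKM on day 3, spread widely over the day 3 libraries, and Cxcl17, a mucosal chemokine, at 2.55, 1.78 and 1.18 FPKM on day 0 and 96.96, 115 and 73.5 FPKM on day 3, and their scaled rises were 4.04 ± 0.97 and 3.19 ± 0.54. Ccl19 was listed at 0 in all day 0 libraries and at 1.07, 0.513 and 2.19 FPKM on day 3. Interferon-stimulated genes rose in 10 of 14 cases, 5 of them without day 3 library 12 or without library 6, for example Oas2, an antiviral synthetase, from 0.0681, 0.153 and 0.244 FPKM on day 0 to 3.81, 3.72 and 8.85 FPKM on day 3, by 2.35 ± 0.41 after scaling.

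S100a8, a calcium-binding protein of neutrophils, was at 0.458, 0.0886 and 0.221 FPKM on day 0 and 17.1, 21.3 and 15.9 FPKM on day 3. S100a8 rose after scaling by 3.59 ± 0.92 (adjusted p = 0.0118), but S100a9, its partner, had a scaled change of -0.25 (adjusted p = 0.887), and 7 of the 10 neutrophil genes were under the filter. Of 10 T cell markers 6 were tested and Cd4, which is not confined to T cells, alone rose, by 3.53 ± 0.53 after scaling from 0, 0.0954 and 0.0577 FPKM on day 0 to 4.704, 3.94 and 6.64 FPKM on day 3, whereas Cd3e had a scaled change of 0.91 (adjusted p = 0.125). All 5 tested mast cell markers rose after scaling, but 1 did so without day 3 library 12 or day 0 library 3, 2 in the fit on 6 libraries and none without day 3 library 6. B and plasma cell markers held 2 rises and 1 fall among 7, the fall being lost with either other scaling, and Igkc, the kappa constant region, was at 1489.8, 905 and 870.0 FPKM on day 0 and 5276, 7599.5 and 8414 FPKM on day 3, with a scaled change of 0.21 ± 0.49 (adjusted p = 0.759). Antigen receptor segments, short gene models whose FPKM are inflated by their length, took 21.7%, 11.02% and 17.6% of all FPKM on day 0 and 66.0%, 66.7% and 74.0% on day 3.

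Of 17 fibroblast and matrix markers 13 rose after scaling and none fell, of 14 collagens 9 rose and none fell, and of 17 metalloproteinase genes and their inhibitors 7 rose and 3 fell. Mmp14, the membrane-type protease that activates MMP2, was at 0.3698, 1.98 and 1.91 FPKM on day 0 and 36.1, 33.2 and 107 FPKM on day 3, and Mmp2, a gelatinase, at 0.466, 2.498 and 2.54 FPKM on day 0 and 41.5, 47.96 and 127 FPKM on day 3. The scaled rises were 2.93 ± 0.47 and 2.91 ± 0.52. Adamts5, an aggrecanase, was at 3.95, 21.8 and 22.6 FPKM on day 0 and 4.59, 4.36 and 10.2 FPKM on day 3, overlapping as deposited and lower by 3.54 ± 0.58 after scaling, and Timp4 and Timp1, inhibitors, changed by -2.18 and -1.42 on that scale (adjusted p = 9.10e-04 and 0.0186). Mmp3, a stromelysin known from involution, had a scaled change of 2.24 (adjusted p = 0.0534). Col1a1, the main fibrillar collagen, was at 0.659, 9.18 and 11.97 FPKM on day 0 and 76.98, 84.01 and 362 FPKM on day 3. Col1a1 rose by 2.46 ± 0.77 (adjusted p = 0.0291) after scaling, a call lost without library 12 (1.82). Without that library 1 collagen and 7 fibroblast markers rose, and in the fit on 6 libraries 0 collagens and 6 markers. Of 6 plasminogen activation genes 4 rose and 1 fell, with 1 rise without library 12. Serpine2, a protease inhibitor, rose from 0.286, 0.408 and 0.2598 FPKM on day 0 to 14.3, 11.8 and 11.3 FPKM on day 3, by 2.64 ± 0.36 after scaling.

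Of 13 white adipocyte markers 9 rose after scaling and none fell, but 5 did so without day 3 library 12 or 3 and without day 0 library 2 or 3. Plin1 and Plin4, coat proteins of lipid droplets, were at 0.925, 1.098 and 2.103 FPKM on day 0 and 94.1, 38.6 and 125 FPKM on day 3 and at 0.133, 0.773 and 0.942 FPKM on day 0 and 35.2, 17.9 and 59.2 FPKM on day 3, lowest of day 3 in library 6. The scaled rises were 3.35 ± 0.41 and 3.53 ± 0.55. Adipoq, adiponectin, had a scaled change of 1.33 (adjusted p = 0.0591) and Lep, leptin, one of -0.59 (adjusted p = 0.307). Summed scaled levels of the 13 markers were 2627, 745 and 792 on day 0 and 4802, 3022 and 4989 on day 3, so that day 0 library 1 lay near day 3. Adrb3, the beta-3 adrenergic receptor of fat, was at 0.397, 0.556 and 1.08 FPKM on day 0 and 31.05, 11.97 and 45.4 FPKM on day 3. Adrb3 rose after scaling by 2.78 ± 0.49, in a thermogenic list of 6 with 4 rises, 2 without day 3 library 6, and with Ucp1 under the filter.

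Of 11 luminal markers 7 rose and 1 fell, with a median scaled change of 1.55, although their summed scaled level was 680, 844 and 705 on day 0 and 549, 586 and 485 on day 3. Elf5, which fell, is a member of this list too. Cldn4, a tight junction claudin, was at 0.182, 0.555 and 0.278 FPKM on day 0 and 23.2, 22.2 and 35.1 FPKM on day 3, and Kit, a receptor of luminal progenitors, at 0, 0.3703 and 0.218 FPKM on day 0 and 5.59, 6.35 and 8.47 FPKM on day 3. Both were higher in every day 3 library, by 3.73 ± 0.64 and 3.01 ± 0.66 after scaling. Krt18 rose after scaling by 0.83 (adjusted p = 0.0103), Krt8 had a scaled change of 0.62 (adjusted p = 0.09197) and Epcam one of 0.37 (adjusted p = 0.218). Cldn8, another claudin, fell on both scales, from 35.97, 45.6 and 44.4 FPKM on day 0 to 24.8, 26.7 and 21.6 FPKM on day 3, with a scaled change of -3.28 ± 0.24, and Cldn1 rose from 0.03797, 0.2502 and 0.0357 FPKM on day 0 to 2.999, 3.004 and 2.33 FPKM on day 3, by 2.09 ± 0.47 after scaling. Among 10 myoepithelial markers 2 rose and 4 fell after scaling. Trp63, the transcription factor p63 of basal cells, was at 0.152, 0.469 and 0.526 FPKM on day 0 and 6.74, 6.89 and 8.61 FPKM on day 3. This was a rise of 1.81 ± 0.31 after scaling, and Acta2 and Cnn1, of the contractile apparatus, changed by -1.54 and -2.06 (adjusted p = 0.00134 and 6.55e-04). The median of the myoepithelial list was 1.83 as deposited and -0.64 after scaling, and with the total outside milk genes and segments as the scale 3 rose and 2 fell. Skin keratinocyte markers were low, with 4 of 6 under the filter, although Sbsn, suprabasin, was at 0.548, 1.04 and 1.17 FPKM on day 0 and 98.6, 105 and 124 FPKM on day 3.

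**Figure D5:**
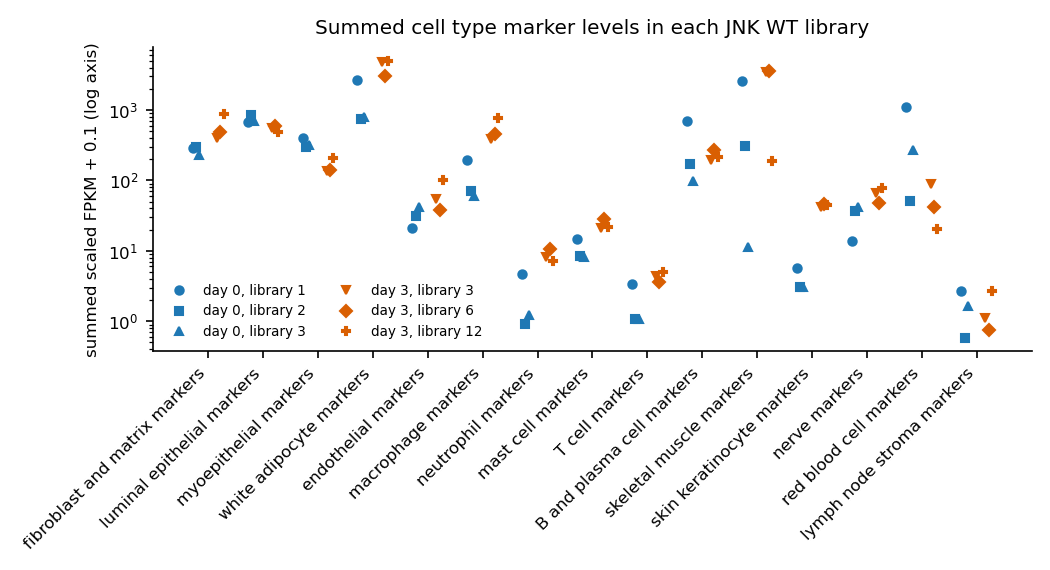
Summed scaled FPKM + 0.1 (log axis) of the marker genes of each cell type in the 6 JNK WT libraries, with day 0 in blue and day 3 in orange and 1 symbol per library. Macrophage sums were 61 to 196 on day 0 and 386 to 765 on day 3, luminal sums were lower on day 3, and the skeletal muscle sums of both time points overlapped.

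Markers of other tissues differed between single libraries. Skeletal muscle markers had summed scaled levels of 2607, 310 and 11.2 on day 0 and 3468, 3587 and 187 on day 3, so that muscle was low in day 0 library 3 and day 3 library 12, and 0 of 6 markers passed after scaling. Red blood cell markers summed to 1099, 50.2 and 274 on day 0 and 89.7, 42.2 and 20.3 on day 3, highest in day 0 library 1. Fibroblast markers summed to 232 to 294 on day 0 and to 396, 483 and 878 on day 3, highest in library 12, which had the lowest share of milk genes. Lymph node markers stayed at or under 2.7 in all libraries. The part of these differences in the results for matrix, immune and adipocyte genes was not tested.

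The direction of 329 genes depended on the scale, and proteins of translation and transport through the secretory pathway were among them. Rpl4 and Rpl7, ribosomal proteins, were at 169, 219 and 257 FPKM on day 0 and 502, 557 and 703 FPKM on day 3 and at 137, 123 and 92.5 FPKM on day 0 and 218, 261 and 272 FPKM on day 3. As deposited they rose by 1.46 and 1.10, and after scaling they changed by -1.05 ± 0.22 and -1.40 ± 0.33. Of 19 ribosomal proteins 17 rose as deposited, as did 91.5% of all genes. After scaling none rose and 10 fell, 15 without day 0 library 2, 5 with the total outside milk genes and segments as the scale, 3 without day 3 library 12 or library 3, 4 without library 6 and 1 in the fit on 6 libraries. Surf4, a cargo receptor of the endoplasmic reticulum, was at 40.3, 74.7 and 104 FPKM on day 0 and 146, 163 and 147 FPKM on day 3, and Eif4g2, a translation factor, at 39.98, 99.2 and 74.3 FPKM on day 0 and 205, 167 and 188 FPKM on day 3, and Snx3, a sorting nexin, at 57.2, 51.1 and 65.2 FPKM on day 0 and 125, 136 and 146 FPKM on day 3. Their scaled changes of -1.35, -1.02 and -1.27 opposed deposited rises of 1.16, 1.48 and 1.24. With the total outside milk genes and segments as the scale no gene was called in opposite directions on the 2 scales, and the falls of Surf4 (-0.79, adjusted p = 0.136), Eif4g2 (-0.47, adjusted p = 0.4496) and Rpl4 (-0.50, adjusted p = 0.224) lost their calls. In the fit on 6 libraries Rpl7 (-1.42) and Eif4g2 (-1.04) lost theirs. All 17 proteasome genes rose as deposited, where 91.5% of all genes did. None of the 17 passed after scaling, with a median of -0.02, and with other scalings or without day 0 library 1 the median was above 0 (0.17 to 0.54) and 3, 4 and 8 of them rose. Among 13 housekeeping genes, Actb rose by 1.28 ± 0.25 after scaling from 43.9, 89.8 and 123 FPKM on day 0 to 1031, 869 and 1429 FPKM on day 3, and Ppia changed by -1.52 ± 0.43 after scaling, in a list with 3 rises and 2 falls.

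Of 21 cell cycle genes 2 rose and 3 fell after scaling, 3 and 0 with the total outside milk genes and segments as the scale. Mki67, a marker of dividing cells, was at 0.181, 4.95 and 5.69 FPKM on day 0 and 0.683, 0.839 and 1.57 FPKM on day 3, with day 0 library 1 below all day 3 libraries as deposited, and fell by 3.08 ± 0.83 after scaling (adjusted p = 0.01496), a call that ended without day 0 library 2 (-2.44) or 3 (-2.47). Mcm7, a subunit of the replicative helicase, was at 0.725, 0.707 and 1.08 FPKM on day 0 and 11.7, 11.9 and 17.05 FPKM on day 3. Mcm7 rose after scaling by 1.47 ± 0.25. Pdk4, which holds pyruvate back from the mitochondrion, was at 3.12, 3.76 and 9.91 FPKM on day 0 and 201, 191 and 183 FPKM on day 3. Pdk4 rose after scaling by 2.78 ± 0.59 (adjusted p = 0.00453). Aldoc, an aldolase, was at 71.8, 92.7 and 156 FPKM on day 0 and 84.6, 93.3 and 67.03 FPKM on day 3, overlapping as deposited and lower by 2.83 ± 0.35 after scaling, in a list of 20 glycolysis and pentose phosphate genes with 2 rises and 7 falls, a count that became 6 rises and 4 falls without day 3 library 12 and 4 rises and 1 fall with the total outside milk genes and segments as the scale. Of 17 respiratory chain genes 3 fell and none rose, where 16.4% of all genes were lower and 19.1% higher. There were 5 falls without day 0 library 2 and 1 without any single day 3 library.

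Further scaled calls of genes named above ended under other settings. With the total outside milk genes and segments as the scale, on which the median of all genes was 0.57, they were those of Slc2a1 (-1.51), Cish (-1.04), Socs2 (-0.51), Acta2 (-0.98), Timp1 (-0.87), Slc7a2 (-1.91) and Mki67 (-2.65). Without day 3 library 12 they were those of Cish (-1.33), Il6st (0.96), Axin2 (0.73) and Wif1 (1.32), without day 3 library 6 those of Il6st (1.13), Axin2 (1.10), Wif1 (1.31) and Timp1 (-1.32), and without day 3 library 3 those of Ppia (-1.47) and Timp1 (-1.38). Wif1 lost its call without day 0 library 1 (1.22) or 2 (1.22), and Axin2 without day 0 library 1 (1.02) or 3 (0.91) and with a pseudocount of 0.01 (1.34). In the fit on 6 libraries the calls of Bax, Il6st, Axin2, Wif1, Timp1, Ppia, Mki67 and Col1a1 ended, with values from -3.11 for Mki67 to 2.45 for Col1a1.

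The same change was compared between genotypes. The difference of the scaled change, JNK KO minus JNK WT, passed an adjusted p of 0.05 for 2 genes (0.0138%), and 1880 had an unadjusted p under 0.05. Neither is named by function. Gm13381 was at 5.19, 4.61 and 5.69 FPKM on day 0 and 0.238, 0.297 and 0.606 FPKM on day 3, with a difference of 4.19 ± 0.47. Gm25596 was listed at 0 in all 6 JNK WT libraries and passed the filter only through JNK KO libraries. Its difference of -8.70 ± 0.50 came from JNK KO alone and says nothing about a change in JNK WT. For the genes described here the differences did not pass, for example 2.42 ± 1.36 for Csn2 (adjusted p = 0.471) and -1.59 ± 0.83 for Igfbp5 (adjusted p = 0.445). With 3 libraries per group, a difference that did not pass does not show that the genotypes changed alike. On day 3 the milk gene share, computed as above, was 57.7%, 34.3% and 36.7% in JNK KO and 20.8%, 18.2% and 8.92% in JNK WT. In JNK KO glands Mapk8 measured 0.986, 0.965 and 2.78 FPKM on day 0 and 1.25, 3.57 and 2.79 FPKM on day 3. Mapk9 measured 4.86, 4.33 and 8.78 FPKM and 5.26, 10.5 and 10.03 FPKM there. On day 3 every JNK KO value of both genes was below every JNK WT value, and on day 0 the ranges overlapped.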

How the data were processed

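RNA of mammary gland pieces was sequenced as paired reads. Per the study's methods and the submitters' notes, the authors trimmed the reads and aligned them to mouse GRCm38 (TopHat2 2.0.14, running Bowtie2). The deposited FPKM per gene model were estimated by the authors with Cufflinks 2.2.1 and Cuffdiff, and the annotation release is not given in the sources used here. The table also holds the authors' own comparisons, with fold changes and p-values, which were not used. Of 37756 gene models 37754 held FPKM values. Depth per library is unknown, because FPKM do not keep it. Whether reads were counted by strand is not given in the sources used here, so antisense and overlapping genes are uncertain.

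Genes with at least 0.5 FPKM in 3 or more of the 12 libraries (14512) were tested as log2(FPKM + 0.1) with limma 3.58.1 in R 4.3.3, with 4 group means, a mean-variance trend, 8 residual degrees of freedom and Benjamini-Hochberg adjustment, so all adjusted p given are limma's. Fold changes on this scale understate the change of low genes. In JNK WT libraries 8641, 10420 and 10752 models reached 0.5 FPKM on day 0 and 14601, 14507 and 14940 on day 3. Genes low on day 0 could therefore pass the filter through day 3 alone, which favours rising genes. Median ratio factors came from 13505 genes. Per the study, each group was 3 mice, 1 library each. The fit was tested on simulated data that held no shift in milk genes, so the choice of scale was not tested by it. Alternatives were other scalings, pseudocounts of 0.01 and 1, a filter at 1 FPKM or none, no trend, the 6 JNK WT libraries alone, and each library left out.

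Named genes included the 15 largest scaled rises and 15 largest falls among genes called on both scales without overlap between the time points on either scale. Also named were up to 2 members per direction of each of 59 lists, the most abundant genes, 5 genes whose direction depended on the scale, and Mapk8 and Mapk9. Further list members are named to show those that did and did not pass, and a few genes the rule names are not reported here. The members and lists were chosen with earlier results of these data known. Motifs were searched as exact letters in RefSeq promoters.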

Additional observations from a re-analysis of the deposited data

How the results depend on the processing

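No paired analysis was possible because the columns of day 0 (1, 2 and 3) and day 3 (3, 6 and 12) share only the number 3, and the labels number each group from 1 to 3. In the fit on the 6 JNK WT libraries alone, 401 genes were higher and 491 lower after scaling, 401 were higher on both scales and the direction of 7 depended on the scale. With a 75th percentile scaling in place of the median ratio 1756 genes were higher and 966 lower, and 158 were higher as deposited and lower on that scale. With the total outside milk genes and antigen segments as the scale 1561 were higher and 438 lower, and for 0 did the direction depend on the scale. With a pseudocount of 1, 887 were higher after scaling, 887 were higher on both scales and 159 depended on the scale, and without a filter the genotypes differed for 6 genes. Leaving out single libraries gave 11711 to 12341 genes higher and 113 to 176 lower as deposited, 724 to 1686 higher and 774 to 1654 lower after scaling, 724 to 1686 higher and 113 to 176 lower on both scales, 98 to 417 that depended on the scale, and 1 to 14 that differed between genotypes. For some genes the sign turned with the library left out, as deposited for Slc38a2 (-0.66 to 0.79), Elf5 (-0.0542 to 0.45), Ccnd1 (-0.30 to 1.19), Hbb-bt (-1.67 to 0.31), Slc7a2 (-0.81 to 0.42), Alas2 (-0.77 to 0.0856) and Cited1 (-0.0116 to 0.51), and after scaling for Psma7 (-0.41 to 0.69), Psmb1 (-0.68 to 0.13), mt-Ts1 (-1.22 to 0.33), mt-Te (-0.96 to 0.18) and Igkc (-0.12 to 0.73). Without day 0 library 1 the turned values of Slc38a2 (-0.66, adjusted p = 0.00324) and Psma7 (0.69, adjusted p = 0.0156) passed 0.05. With the 75th percentile Psma7 was at 0.17 after scaling, and with the total outside milk genes and segments Psma7 was at 0.54, Psmb1 at 0.15, mt-Ts1 at 0.26 and mt-Te at 0.25. The cause was not tested in any of these. Of the values of named genes under all alternatives, 6619 kept direction and call, 253 lost the call, 11 gained it and 23 turned. The limits are 3 libraries per time point, pieces of whole gland, shares in place of amounts, unknown depth per library, and short models such as mt-Ts1, mt-Te and antigen receptor segments whose FPKM are inflated. An exact permutation test of 3 against 3 libraries cannot give a p below 0.1.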
